A study of Mus musculus with 6 samples.

Results

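The genes described here are 10 mRNAs of the Dchs1-Fat4 pair and of planar cell polarity (PCP), the system that gives neighbouring cells a common direction in the plane of a tissue. They are Dchs1, Fat1, Fat3, Fat4, Fjx1, Celsr1, Celsr2, Celsr3, Vangl2 and Prickle1, 10 of the 22048 genes in the deposited table and 10 of the 13952 genes with enough reads to be tested. The set was chosen from genes whose HE and NC values in these same samples were already known. Their difference between HE and NC is therefore given as a description, without a test. The samples were neurospheres, floating clusters grown from neural stem and progenitor cells (NSC/NPCs) of the fetal hypothalamus, harvested at passage 1. All cells came from male fetuses of C57BL/6 dams aged 8 weeks, isolated at E14.5 and grown in 10 ng/mL EGF and 10 ng/mL bFGF. In the HE group (prenatal high estradiol, n = 3) the dams had been given estradiol valerate by gavage at 100 μg/kg/d from E5.5 to E11.5. In the NC group (n = 3) the dams received the corn oil solvent according to the methods of the study, while the sample labels call these samples untreated. Each sample pooled cells of 2 mice, and nothing in the labels says which fetuses shared a dam, so the spread between samples may hold less than the spread between litters. Estradiol had been given to the dam and not to the culture, and the cells had been expanded in culture after isolation.

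In the fly and in mammals the giant cadherins Dchs1 and Fat4 sit on facing cells and bind each other, Dchs1 acting as the ligand and Fat4 as the receptor. The Golgi kinase Fjx1, the mammalian relative of four-jointed, belongs to a family that phosphorylates cadherin repeats and so tunes this binding. The pair is known for its role in the developing cortex, where loss of either protein changes the balance of progenitors and neurons and the position of neurons, and it has been linked to the Hippo pathway and its coactivators Yap1 and Wwtr1 (Taz). A separate core PCP module is built from the seven-pass cadherins Celsr1, Celsr2 and Celsr3, the Frizzled receptors with Dishevelled, and on the opposite cell face Vangl2 with Prickle1. In the brain this module orients ependymal cilia and guides axons and migrating neurons. Fat1 and Fat3 are further Fat cadherins, with known roles in actin organisation at cell contacts and, for Fat3, in the shape of retinal neurons.

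RNA-Seq gave between 16078675 reads on genes in HE3 and 19137059 in NC2, so that 1 read on a gene of 1 kilobase was worth 0.0523 to 0.0622 RPKM (reads per kilobase of gene length, scaled to the library's total of reads on genes). Levels below are in RPKM. Differences are HE minus NC on the scale of log2(RPKM + 0.1), with the standard error (SE) of limma's fit, and a value of -1 stands for close to 50% of the NC level in a well expressed gene. In that fit 0 of 13952 mRNAs, or 0.0%, had an adjusted p-value under 0.05 with a log2 difference of at least 1 either way (smallest adjusted p = 0.148, Benjamini-Hochberg over all genes tested). At an unadjusted p under 0.05, 1647 mRNAs (11.8%) were lower and 1211 (8.68%) higher in HE, and limma's voom on the read counts gave 0 calls and 2914 mRNAs at an unadjusted p under 0.05. Without NC3, 103 mRNAs passed both cutoffs. The 10 progenitor markers were present in every sample. Their summed level, most of it Vim and Fabp7, was 3087 to 3725 RPKM in NC and 2963 to 4703 in HE. Their median log2 difference was -0.24, with 1 lower and 0 higher at an unadjusted p under 0.05 in limma. In 3 of the 10 (Sox2, Prom1 and Msi1) every HE value lay below every NC value, against 17.9% of all genes tested. In 0 of the 10 every HE value lay above, against 14.8%. Sox2, a transcription factor of neural stem cells, was at 195 to 209 RPKM in NC and 97.3 to 176 in HE. Nes, Fabp7 and Hes1 overlapped between the groups and were highest in HE3. The part of these marker differences in the levels below was not tested. HE3 had the fewest reads and stood apart from the other samples in several of the genes described here, so values without it are given for the 10 genes, and for other named genes where they differ by more than 1.5 times.

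The position of each gene is given on GRCm38.p6, the assembly that corresponds to mm10, from the RefSeq annotation. Of the 10 genes 7 had an entry in the RefSeq promoter table, the others being Dchs1, Fjx1 and Celsr1. Vangl2 and Celsr3 are shown because each had all its HE values below all its NC values and because most of the 250-base window lies before the annotated gene. The last 23 bases of the Vangl2 window and the last 22 of the Celsr3 window fall within the gene and are left out. Capitals mark the letters of a GC box, GGGCGG or its reverse complement CCGCCC, and the sequences run 5′ to 3′ on the strand of the gene. Vangl2 lies on the minus strand, with 227 bases shown at chr1:172027319-172027545, and Celsr3 on the plus strand, with 228 bases shown at chr9:108825795-108826022.
Vangl2: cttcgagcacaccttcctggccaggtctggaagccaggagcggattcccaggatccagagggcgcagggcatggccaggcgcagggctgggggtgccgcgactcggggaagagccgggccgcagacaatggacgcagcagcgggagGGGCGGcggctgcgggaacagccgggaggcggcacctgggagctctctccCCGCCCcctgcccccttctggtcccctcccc
Celsr3: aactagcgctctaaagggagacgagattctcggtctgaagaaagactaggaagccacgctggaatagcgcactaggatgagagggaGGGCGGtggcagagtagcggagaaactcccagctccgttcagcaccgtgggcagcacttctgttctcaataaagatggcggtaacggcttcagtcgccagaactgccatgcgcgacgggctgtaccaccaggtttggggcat
The Vangl2 sequence shows 2 GC boxes and the Celsr3 sequence 1, with a further one in the 22 bases left out. The GC box is a motif that 32.7% of all 32851 promoter windows hold on one strand or the other. The whole Vangl2 window had 18 CpG dinucleotides and 73.6% G or C, and the Celsr3 window had 17 CpG and 58.0% G or C, against a median of 6 CpG over all windows. The windows of the 7 genes were also searched on both strands for other motifs, which do not overlap the GC box in letters. Those of Fat1, Fat3, Fat4, Celsr2 and Prickle1 lay wholly inside the annotated genes, and Prickle1 had more than 1 window. The Fat1 window, chr8:44949958-44950207, lay far inside a gene annotated from 44933100 on the plus strand. The core bound by TEAD factors, GGAATG, was found in the Fat1 window only, against 12.6% of all windows. The core bound by estrogen receptors, AGGTCA, was found in none of the 7, against 14.0% of all windows. The TATA motif, TATAAA, was found in none of the 7 either, against 12.4% of all windows. A match of such letters is not a binding site, and their absence from this window says nothing of the factor.

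Dchs1, the ligand of the pair, had close to 50% of its NC level in HE. Dchs1 (ENSMUSG00000036862, chromosome 7, 105752989 to 105788355) was at 28.1, 21.1 and 26.5 RPKM in NC1, NC2 and NC3 and at 11.8, 13.1 and 12.7 RPKM in HE1, HE2 and HE3. The groups lay far apart, with the highest HE sample well below the lowest NC sample, and the HE samples were close to each other. The means were 25.2 ± 3.67 RPKM for NC and 12.5 ± 0.705 RPKM for HE (mean ± SD of 3 samples), so that HE had 49.8% of the NC level and the log2 difference was -0.99 (SE 0.14). This value did not rest on one sample. It was -1.0 without HE3 and lay between -1.11 and -0.91 when each sample was left out in turn. Counting error was small, since each sample held 2267 to 5832 reads on Dchs1. Of all tested genes 525, or 3.76%, had a log2 difference at or below that of Dchs1.

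Fat4, the receptor that binds Dchs1, had nearly equal means in the groups. Fat4 (chromosome 3, 38884667 to 39011992) was at 5.16, 4.02 and 5.01 RPKM in NC and at 3.29, 4.67 and 6.08 RPKM in HE. The HE samples lay on both sides of the NC samples, HE1 being the lowest and HE3 the highest of the 6. The means were 4.73 ± 0.618 RPKM in NC and 4.68 ± 1.40 RPKM in HE, with a log2 difference of -0.05 (SE 0.24), which was -0.26 without HE3. The sign of this small difference was not stable, being 0.01 with median-of-ratios scaling, 0.02 without NC1, 0.18 without HE1 and 0.10 after centring on genes of like length.

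Fjx1, the kinase of the system, was the second most abundant of the 10 mRNAs. Fjx1 (chromosome 2, 102449366 to 102451792) was at 31.6, 32.1 and 27.2 RPKM in NC and at 28.6, 39.0 and 38.0 RPKM in HE. HE2 and HE3 were above every NC sample and HE1 was within the NC range. The means were 30.3 ± 2.74 RPKM and 35.2 ± 5.71 RPKM, a log2 difference of 0.21 (SE 0.15), or 0.14 without HE3.

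The ratio of ligand to receptor within a sample was lower in HE. Dchs1 had 5.44, 5.23 and 5.28 times the RPKM of Fat4 in the NC samples, a ratio of 5.32 ± 0.107 that varied little although both mRNAs were lowest in NC2 among the NC samples. In the HE samples the ratio was 3.58, 2.81 and 2.09, or 2.83 ± 0.743. All HE ratios lay below all NC ratios, and the lowest was in HE3, where Fat4 was highest. The ratio of Dchs1 to Fjx1 was 0.888, 0.655 and 0.975 in NC and 0.411, 0.337 and 0.335 in HE, again without overlap. The ratio of Fjx1 to Fat4 overlapped between the groups, with 6.12, 7.99 and 5.42 in NC and 8.71, 8.34 and 6.25 in HE. These ratios use the values the set was chosen from and are descriptions as well.

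**Figure D1:**
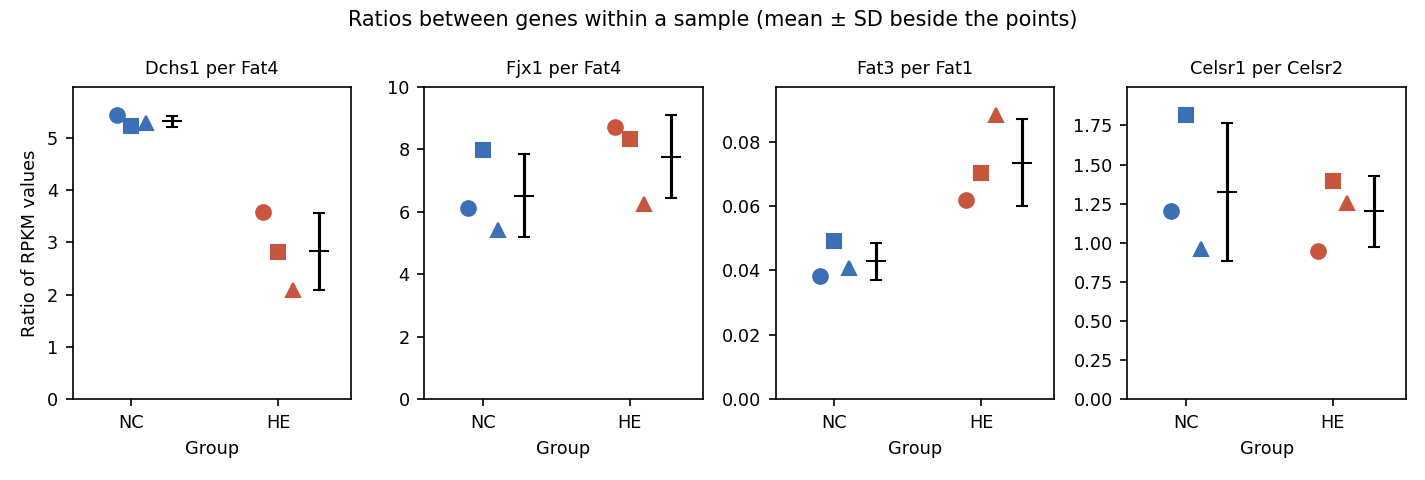
Ratios of RPKM values within a sample for 4 pairs of genes, each panel with its own linear axis from 0. Circles, squares and triangles are samples 1, 2 and 3 of NC (blue) and HE (red), and the black bars are the group mean ± SD (n = 3). Dchs1 per Fat4 was 5.32 ± 0.107 in NC and 2.83 ± 0.743 in HE, and Celsr1 per Celsr2 overlapped between the groups.

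The other Fat cadherins had no lower mean in HE. Fat1 (chromosome 8, 44933100 to 45052257) had the highest level of the 10 mRNAs, at 42.4, 37.3 and 43.1 RPKM in NC and 38.9, 45.3 and 45.0 RPKM in HE. Its groups overlapped, with a log2 difference of 0.07 (SE 0.11), or 0.04 without HE3, and HE at 105% of NC. Fat1 had 10851 to 13471 reads per sample, the most of the 10 genes.

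Fat3 was the one gene of the 10 with every HE value above every NC value. Fat3 (chromosome 9, 15910189 to 16502681) was at 1.63, 1.83 and 1.76 RPKM in NC and at 2.41, 3.18 and 3.97 RPKM in HE. The NC samples were tightly grouped, and the HE samples were spread with HE3 the highest. The means were 1.74 ± 0.106 and 3.19 ± 0.782 RPKM, so that HE had 183% of the NC level, with a log2 difference of 0.81 (SE 0.21) that was 0.64 without HE3. Relative to Fat1 in the same sample, Fat3 was at 0.0384, 0.0492 and 0.0409 in NC and at 0.0619, 0.0702 and 0.0884 in HE. Fat3 made up 3.70% of the summed level of Fat1, Fat3 and Fat4 in NC and 6.20% in HE, while that sum was 47.4 ± 3.68 RPKM in NC and 50.9 ± 5.57 RPKM in HE.

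**Figure D2:**
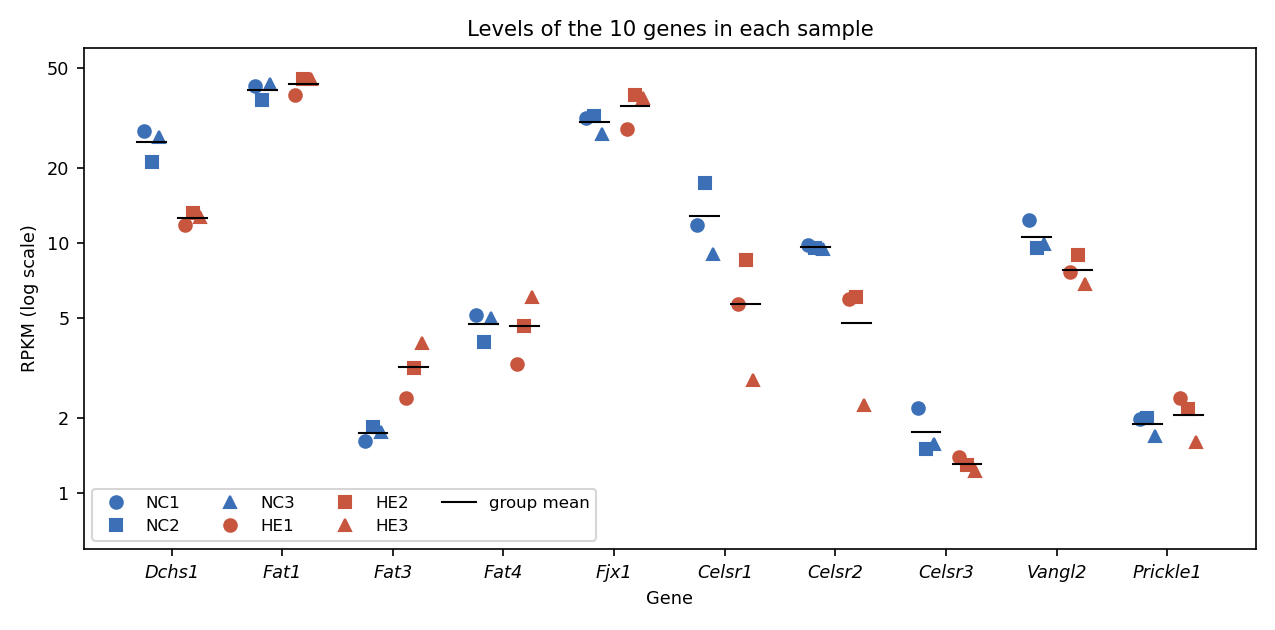
Level of each of the 10 genes in each sample, in RPKM on a log axis. Blue points are NC and red points HE, the shapes stand for samples 1, 2 and 3, and the black lines are group means. The points of Dchs1, Celsr1, Celsr2, Celsr3 and Vangl2 lie lower in HE without overlap, those of Fat3 lie higher without overlap, and those of Fat1, Fat4, Fjx1 and Prickle1 overlap.

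The Celsr cadherins, the adhesive core of the PCP module, were lower in HE in all 3 of their members, by different amounts and with HE3 the lowest sample in each. Celsr1 (chromosome 15, 85898758 to 86034223) was at 11.8, 17.4 and 9.08 RPKM in NC and at 5.68, 8.54 and 2.84 RPKM in HE. The groups did not overlap, but HE2 was close to NC3, and both groups were widely spread. The means were 12.8 ± 4.25 and 5.68 ± 2.85 RPKM, a log2 difference of -1.24 (SE 0.41) that was -0.81 without HE3.

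Celsr2 (chromosome 3, 108390848 to 108416069) was at 9.83, 9.59 and 9.49 RPKM in NC and at 5.98, 6.11 and 2.26 RPKM in HE. Here the NC samples were nearly equal, and HE3 had less than the other HE samples. The means were 9.64 ± 0.177 and 4.78 ± 2.19 RPKM, and the log2 difference of -1.12 (SE 0.36) was -0.66 without HE3. The distance of HE3 from the NC mean was nearly the same in both genes, at -2.08 for Celsr1 and -2.05 for Celsr2 on the log2 scale, against -1.10 and -0.68 in HE1 and -0.52 and -0.65 in HE2.

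Celsr3 (chromosome 9, 108826023 to 108852969), a family member known from axon guidance, was among the 3 lowest of the 10 mRNAs. It was at 2.18, 1.51 and 1.57 RPKM in NC and at 1.4, 1.3 and 1.22 RPKM in HE. The gap between the groups was small, with HE1 just below NC2, and only NC1 stood clearly higher. The log2 difference was -0.38 (SE 0.20), -0.34 without HE3 and -0.22 at its nearest to 0 when single samples were left out.

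Taking the Celsr mRNAs as a sum, NC samples had 23.8, 28.5 and 20.1 RPKM and HE samples had 13.1, 15.9 and 6.32 RPKM. Celsr1 was 51.9% of this sum in NC and 47.3% in HE, with overlapping groups. Celsr3 was 9.17%, 5.28% and 7.81% of it in NC and 10.7%, 8.13% and 19.4% in HE, overlapping as well and highest in HE3, where Celsr1 and Celsr2 were lowest. The ratio of Celsr1 to Celsr2 ranged from 0.956 to 1.82 in NC and from 0.950 to 1.40 in HE, so that these genes kept overlapping proportions to each other.

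Vangl2, the membrane protein that marks the cell face opposite to Frizzled, was lower in HE by less than Dchs1. Vangl2 (chromosome 1, 172000960 to 172027318) was at 12.4, 9.52 and 9.90 RPKM in NC and at 7.65, 8.99 and 6.85 RPKM in HE. HE2 was close to NC2 and NC3, and the groups did not overlap. The means were 10.6 ± 1.56 and 7.83 ± 1.08 RPKM, with HE at 73.8% of NC and a log2 difference of -0.43 (SE 0.16), or -0.34 without HE3.

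Prickle1, the cytoplasmic partner of Vangl2, overlapped between the groups. Prickle1 (chromosome 15, 93499111 to 93596266) was at 1.99, 2.01 and 1.70 RPKM in NC and at 2.40, 2.17 and 1.60 RPKM in HE. HE1 was the highest and HE3 the lowest of the 6 samples. The mean was 1.90 ± 0.172 RPKM in NC and 2.06 ± 0.412 RPKM in HE, a log2 difference of 0.10 (SE 0.20), which ranged from -0.02 (without HE1) to 0.26 (without HE3) when samples were left out. Prickle1 had the fewest reads, 112 in HE3 and 187 in HE1, for which exact Poisson 95% intervals of counting error were 1.32 to 1.93 and 2.07 to 2.77 RPKM.

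**Figure D3:**
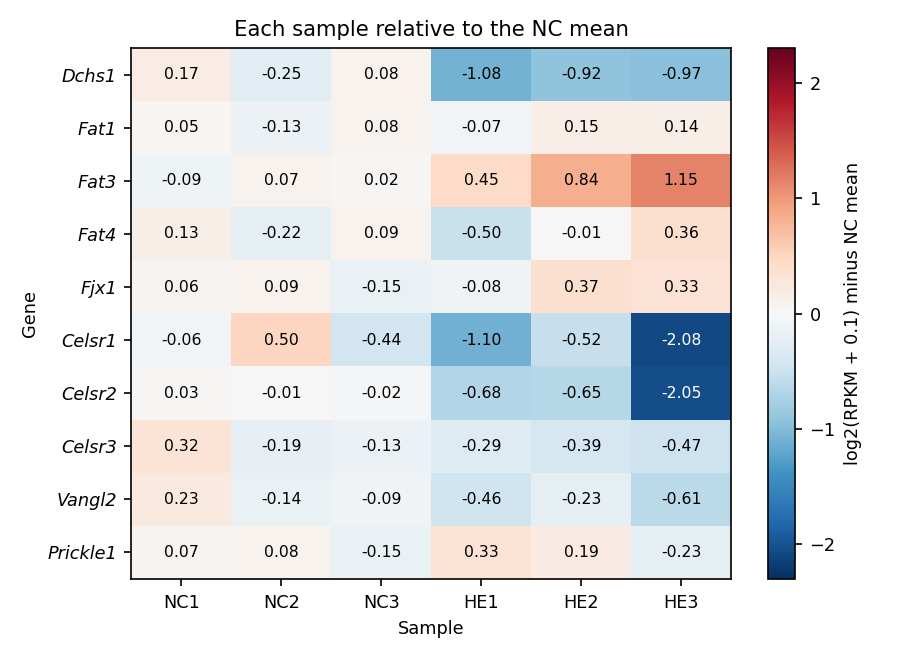
Each sample of the 10 genes relative to the NC mean, as log2(RPKM + 0.1) minus the mean of the NC samples, written in each cell and shown in colour (red higher, blue lower). In Dchs1 the HE samples are alike (-1.08, -0.92 and -0.97), while in Celsr1 and Celsr2 HE3 (-2.08 and -2.05) is lower than HE1 and HE2.

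Over the 10 genes, 6 had a lower and 4 a higher mean log2 value in HE. Every HE value lay below every NC value in 5 genes, against 17.9% of all genes tested, and above in 1 gene, against 14.8% of all genes tested. Nothing is read from these counts, because the set was chosen from the same values. The median log2 difference of the 10 was -0.22, or -0.30 without HE3, beside -0.06 over all 13952 genes. HE3 was the lowest sample in 5 of the genes, namely Celsr1, Celsr2, Celsr3, Vangl2 and Prickle1, and the highest in Fat3 and Fat4. NC1 was the highest sample in 4.

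Gene length moved with the difference between the groups over the whole table. The median log2 difference was 0.10 in the decile of tested genes with the shortest models (96 to 1610 bases) and -0.15 in the decile with the longest (9322 to 116825 bases), and without HE3 these medians were 0.09 and -0.05. Dchs1, Fat1, Fat3, Fat4, Celsr1, Celsr2 and Celsr3 are all in the longest decile. After subtracting the median of genes of like length, the log2 difference was -0.84 for Dchs1, -1.09 for Celsr1, -0.97 for Celsr2, -0.23 for Celsr3, -0.36 for Vangl2 and 0.96 for Fat3. The median of the 10 was then -0.07. The part of length in these values was not tested.

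**Figure D4:**
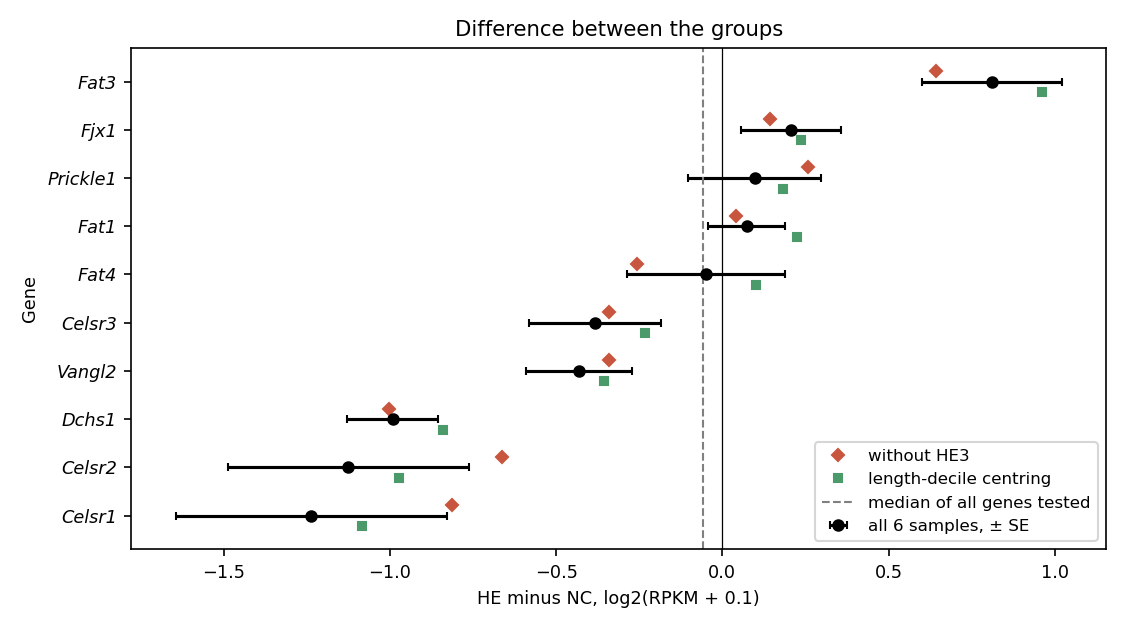
HE minus NC for each of the 10 genes on the log2(RPKM + 0.1) scale. Black points with bars are the difference ± SE over all 6 samples, red diamonds leave out HE3, green squares are centred on genes of like length, and the dashed line is the median of all genes tested (-0.06). Dchs1 moves little without HE3, and Celsr1 and Celsr2 move towards 0.

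The order of levels among the 10 mRNAs was tested over all 6 samples with RPKM, which is per length. The gaps pool both groups and so depend in part on the difference between HE and NC. By mean log2 level the order was Fat1 (42.0 RPKM), Fjx1 (32.8), Dchs1 (18.9), Vangl2 (9.22), Celsr1 (9.23), Celsr2 (7.21), Fat4 (4.71), Fat3 (2.46), Prickle1 (1.98) and Celsr3 (1.53). Each neighbour was compared with the next within a sample by an exact two-sided sign-flip permutation test, whose smallest p with 6 samples is 0.03125. The order was taken from the same 6 samples, so the first gene of each pair was the higher one on average before any test. That p was reached by 4 of the 9 neighbour pairs, in each of which the first gene was higher in 6 of 6 samples. These were Fat1 over Fjx1 by 0.37, Fjx1 over Dchs1 by 0.87, Dchs1 over Vangl2 by 0.96 and Fat4 over Fat3 by 0.96 on the log2 scale (exact permutation test, adjusted p = 0.0703 over the 9 pairs for each). With this adjustment 0 of the 9 pairs passed 0.05. With 4 of the 9 pairs at the smallest p, 0.0703 is the lowest adjusted p they could have. The test therefore could not decide any step of the order. In the other 5 pairs, among Vangl2, Celsr1, Celsr2 and Fat4 and among Fat3, Prickle1 and Celsr3, the first gene was higher in 4 or 5 of 6 samples. The order changed between the groups. Celsr1 ranked 4 and Vangl2 5 in NC, and the reverse in HE, while Prickle1, Celsr3 and Fat3 ranked 8, 9 and 10 in NC and 9, 10 and 8 in HE. The gap between Fjx1 and Dchs1 also differed, at 0.17, 0.61 and 0.04 in NC and 1.28, 1.56 and 1.57 in HE on the log2 scale. In NC, Fat1 was at a higher level than 90.5% of tested genes, Dchs1 than 83.4%, Celsr1 than 69.2%, Fat4 than 44.0% and Fat3 than 24.6%.

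Beyond the 10 genes, lists of related genes were read against the share of all tested genes past the same rule, an unadjusted p under 0.05 in limma (11.8% lower and 8.68% higher). In 5 lists with 118 different tested genes other than the 10, 17 genes were lower and 11 higher at this rule, and the median log2 difference was -0.16. No list had a gene past the adjusted cutoff, and the smallest adjusted p was 0.195, so the genes named below did not pass the test over all genes.

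Among 25 tested genes of the wider PCP system, 6 (24%) were lower and 4 (16.0%) higher at an unadjusted p under 0.05, with a median of -0.24, or -0.19 without HE3. The lower count was 3 without NC1, and the higher count was 1 without NC1 or NC2 and 2 without NC3, HE2 or HE3. Wnt5b, a ligand of this branch of Wnt signalling, was at 8.84 ± 0.669 RPKM in NC and 5.75 ± 0.253 in HE (log2 difference -0.61, SE 0.12, adjusted p = 0.195 in limma). Ptk7, a coreceptor and the most abundant gene of the list, was at 66.9 ± 4.01 and 52.1 ± 3.12 RPKM (-0.36, SE 0.10, the same adjusted p). Dvl2, a Dishevelled adaptor, was at 10.9 ± 0.149 and 7.45 ± 1.87 RPKM (-0.58). In the other direction stood Ror2, a receptor for Wnt5a, at 0.739 ± 0.144 and 1.52 ± 0.270 RPKM (0.95), Dact1 at 2.39 ± 0.555 and 3.69 ± 0.903 RPKM (0.61), and the Fat cadherin Fat2, which stayed under 0.16 RPKM in every sample. Prickle4 was not tested. Some relatives of the 10 genes are named here after their values were seen. Vangl1 and Dchs2 differed less than Vangl2 and Dchs1, while Prickle2 and Prickle3 differed more than Prickle1. Vangl1 was at 4.63 ± 0.0598 RPKM in NC and 3.98 ± 0.327 in HE (-0.22), and Prickle2 at 4.13 ± 0.641 and 3.46 ± 0.0864 RPKM (-0.24). Prickle3 was at 0.376 ± 0.0723 and 0.203 ± 0.152 RPKM with overlapping groups (-0.77, or -0.38 without HE3). Dchs2, the relative of Dchs1, was at 0.144 ± 0.0526 and 0.208 ± 0.0641 RPKM (0.34). Dchs2 thus had a small fraction of the RPKM of Dchs1 in every sample.

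Among 17 genes that act below the core, such as small GTPases, their kinases and cilium-linked PCP effectors, 2 (11.8%) were lower and 1 (5.88%) higher, and the median was -0.03. The lower genes were Arhgef19, a guanine nucleotide exchange factor, at 20.7 ± 6.36 and 11.9 ± 3.15 RPKM, and Intu, a ciliogenesis and PCP effector, at 4.01 ± 0.254 and 2.91 ± 0.406 RPKM. The higher one was the GTPase Cdc42, which was also the most abundant, at 53.3 ± 3.34 and 65.3 ± 2.65 RPKM (log2 difference 0.29, SE 0.10). These shares were near or under those of all tested genes, and with single samples left out the lower count ran from 1 (without NC1, NC2 or NC3) to 3 and the higher count from 0 (without NC1 or HE1) to 2 (without HE3).

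The Hippo pathway, to which Fat4 has been linked, had 1 of 32 genes lower (3.12%) and 0 higher at an unadjusted p under 0.05 in limma, while voom on the read counts gave 3 lower. The lower count was 0 without NC1, NC2 or NC3, 3 without HE2 and 4 without HE1, and without HE3 1 gene was higher. After centring on genes of like length, 0 were lower and 3 higher. The median was -0.19, but -0.06 without HE3. Patj, a scaffold of apical junctions, was the one gene at this rule, at 1.00 ± 0.0275 RPKM in NC and 0.662 ± 0.179 in HE (log2 difference -0.56, or -0.36 without HE3). The most abundant gene, Vgll4, a TEAD cofactor, was at 39.9 ± 3.17 and 40.2 ± 7.09 RPKM with overlapping groups (-0.00, or 0.15 without HE3). Of the coactivators, named after their values were seen, Wwtr1 was at 42.5 ± 3.61 and 34.4 ± 5.15 RPKM (-0.31, SE 0.14, adjusted p = 0.259 in limma) and Yap1 at 10.9 ± 1.15 and 9.0 ± 1.22 RPKM (-0.28, SE 0.15, adjusted p = 0.30). Without HE3 these differences were -0.18 and -0.17.

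Among 20 tested genes known as Yap1 targets, a list that holds Fjx1 and shares 4 genes with the Hippo list, 4 (20%) were lower and 1 (5.0%) higher, with a median of -0.19, or -0.11 without HE3. The lower count was 2 without NC1, and the higher count was 0 without NC1, 2 without HE1 and 3 without HE3. After centring on genes of like length, 3 were lower and 3 higher. Myof, a membrane repair protein, was at 13 ± 2.41 RPKM in NC and 5.21 ± 3.04 in HE (-1.45, SE 0.41), and Arhgef17 was at 21.0 ± 3.40 and 10.5 ± 3.72 RPKM (-1.05, SE 0.28). Ccn2, the matricellular protein often used as a readout of Yap1, was at 1.42 ± 0.512 and 0.573 ± 0.229 RPKM (-1.17, SE 0.36). Each of these had an adjusted p of 0.195 in limma and all were lower in HE without overlap. Nt5e was higher, at 0.667 ± 0.117 and 1.07 ± 0.0414 RPKM, and Igfbp3, the most abundant target, overlapped at 175 ± 54.9 and 216 ± 72.4 RPKM (0.31, or 0.05 without HE3). Ccn1, a target of the same list named after its values were seen, did not share the lower level of Ccn2 in every HE sample. It was at 36.2, 43.6 and 5.27 RPKM in HE1, HE2 and HE3, against 20.8 to 24.7 RPKM in NC (log2 difference -0.14, or 0.82 without HE3). Ankrd1 and Foxf2 were not tested.

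Among 29 tested cadherins outside the Fat, Dachsous and Celsr families, 4 (13.8%) were lower and 5 (17.2%) higher, with a median of -0.01, or 0.09 without HE3. The lower count was 2 without NC1, and the higher count was 3 without NC1 or NC2. Among the lower genes were the protocadherins Pcdh1 at 6.73 ± 0.466 and 3.49 ± 0.471 RPKM (-0.94, SE 0.15), Pcdh8 at 1.39 ± 0.121 and 0.568 ± 0.242 RPKM (-1.23) and Pcdh9 at 39.3 ± 5.06 and 23.6 ± 8.93 RPKM (-0.80, or -0.48 without HE3). Among the higher genes were Cdh20 at 11.2 ± 1.86 and 18.5 ± 3.58 RPKM (0.71) and Cdh10 at 0.757 ± 0.125 and 1.46 ± 0.368 RPKM (0.85). Cdh5, which is also in the list of endothelial markers below, was higher as well, at 0.601 ± 0.227 and 2.12 ± 0.563 RPKM (1.69). The remaining genes at this rule, named after their values were seen, were protocadherins on both sides, Pcdh20 lower (-0.76) and Pcdh7 (0.32) and Pcdh18 (0.58, or 0.32 without HE3) higher. The most abundant, Clstn1, was at 70.4 ± 6.22 and 65.8 ± 6.79 RPKM with overlapping groups. Cdh1, Cdh3, Cdh9, Cdh12, Cdh17 and Cdh26 were not tested.

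**Figure D5:**
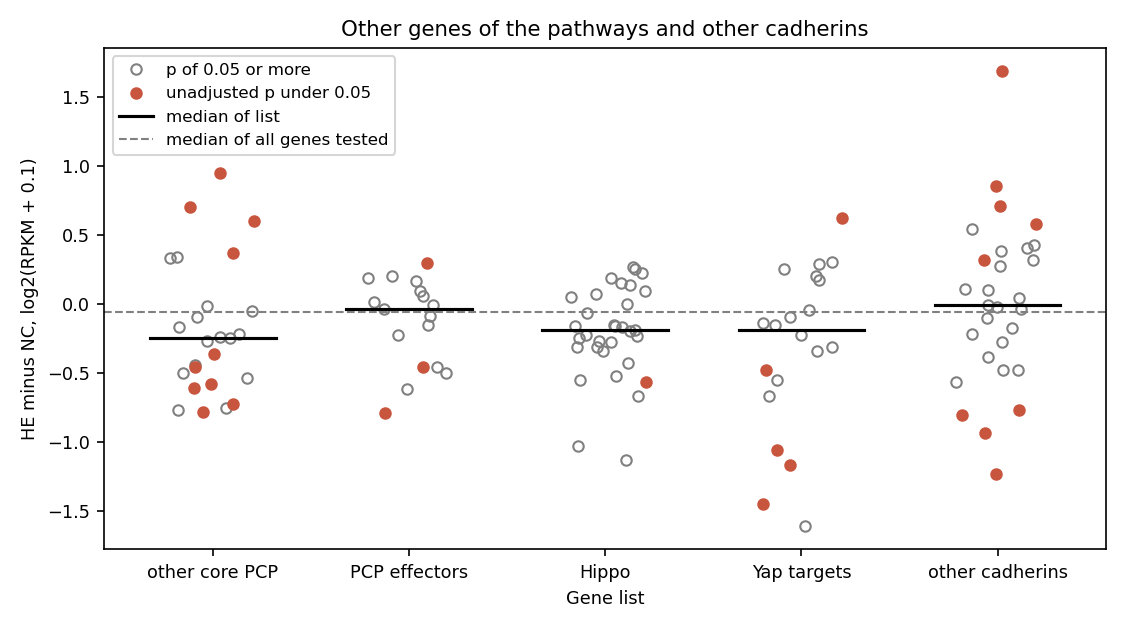
HE minus NC on the log2(RPKM + 0.1) scale for the tested genes of 5 lists outside the 10, except that the Yap1 target list holds Fjx1. Each circle is a gene, filled red where the unadjusted limma p was under 0.05, black lines are list medians and the dashed line is the median of all genes tested (-0.06). The medians run from -0.24 (other core PCP) to -0.01 (other cadherins).

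Markers of other cell types also differed between the groups, and in bulk RNA fewer cells of a type and less RNA per cell cannot be told apart. Markers of ependymal cells, whose cilia depend on Celsr2, Celsr3 and Vangl2 for their orientation, had a summed level of 61.6 to 89.8 RPKM in NC and 35.2 to 67.8 RPKM in HE, the lowest being HE3. The groups overlapped in this sum, and Foxj1, which overlapped as well, made up most of it in every sample. Of the 9 ependymal markers 3 were lower at an unadjusted p under 0.05 in limma and 0 higher, with a median log2 difference of -0.69. For this count and those below, the shares of all genes tested were 11.8% lower and 8.68% higher. In 1 of the 9 ependymal markers every HE value lay below every NC value, against 17.9% of all genes tested. Rsph1, Ccdc153 and Spag6l were highest in HE1. Mesenchymal markers summed to 37.9 to 99.6 RPKM in NC and 84.9 to 175 RPKM in HE, with 4 of 9 tested higher and 0 lower. Endothelial markers summed to 2.79 to 3.81 RPKM in NC and 4.67 to 6.20 RPKM in HE, with 2 of 4 tested higher and Emcn at 0 in at least 1 sample. Most of the higher endothelial sum came from Cdh5, at 0.341 to 0.755 RPKM in NC and 1.66 to 2.75 in HE, and from Esam. Flt1, at 1.35 to 2.53 RPKM in NC and 1.34 to 1.81 in HE, overlapped between the groups, as did Kdr, Tek and Pecam1. Cldn5 and Emcn were at 0.264 RPKM or less in every sample. Microglial markers summed to 0.682 to 1.15 and 2.01 to 9.29 RPKM, with 1 of 4 tested higher and C1qa, C1qb, C1qc and Tyrobp at 0 in at least 1 sample. The higher sum came from C1qa, C1qb, C1qc and Tyrobp. Cx3cr1, P2ry12, Csf1r and Aif1 overlapped between the groups, and P2ry12 was lowest in HE3, at 0.147 RPKM against 0.272 to 0.328 in NC. Neuronal markers summed to 120 to 154 RPKM in NC and 138 to 272 RPKM in HE, with 2 of 10 higher and 0 lower. Most of the HE3 sum was Gap43, at 202 RPKM there and 66.3 to 75.1 RPKM in NC, while the median log2 difference of the 10 was -0.10 and Dcx, Stmn2 and Elavl3 were lowest in HE3. Astrocyte markers (1560 to 1950 and 1200 to 1805 RPKM, 2 of 8 higher) and oligodendrocyte lineage markers (291 to 321 and 315 to 515 RPKM, 0 of 8 either way) completed the lists. The part of these cell types in the levels of the 10 genes was not tested.

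The 10 genes differed from each other in their pattern over the 6 samples. Likeness was measured as the root mean square difference of 2 profiles on the log2(RPKM + 0.1) scale, each centred on its mean. The nearest pair was Celsr3 and Vangl2, at 0.117, followed by Fat1 and Fjx1 at 0.163, and the farthest was Fat3 and Celsr1, at 1.21. Dchs1 and Fat4 lay 0.519 apart, and 5780 of the tested genes were nearer to Dchs1 than Fat4 was. Outside the set, the genes nearest to Dchs1 over the 6 samples were Megf10 (0.123), Npr1 (0.148), Sypl2 (0.169), Erfe (0.170) and Furin (0.175). Megf10, a membrane receptor with EGF-like repeats, averaged 8.68 RPKM over NC and 4.29 RPKM over HE, and the protease Furin was at 3.93 and 2.20 RPKM. The genes nearest to Fat4 were Adrb1 (0.0894), Lct (0.0895), Ttc7 (0.0895), Spsb4 (0.0958) and Mms22l (0.0969), which had, as Fat4 did, HE1 low and HE3 high. Lct was at only 0.0349 to 0.126 RPKM and Sypl2 at 0.0995 to 0.353 RPKM. At such levels the added 0.1 flattens a profile. With 6 samples and 13952 genes many profiles are close to any given one, and likeness is given as a description only.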

How the data were processed

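RNA was sequenced from 3 NC and 3 HE samples of NSC/NPCs. The authors filtered the reads and aligned them with TopHat2 (CASAVA 1.7 and mm10 are also named in the submitters' processing notes). The counting tool and its use of strand are not given in the sources used here, so overlapping and antisense genes could share reads. The deposited read counts per gene were not normalized, and large counts are written with commas. The deposited RPKM was computed by the authors from the read count, gene length and library total, a formula the values matched within 4.99e-07. Gene symbols were found for 21781 of 22048 identifiers.

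The 10 genes and all gene lists were chosen with earlier results of these data known. In the lists, up to 3 genes per direction with the smallest unadjusted p under 0.05 and the most abundant gene were named, and the 5 genes nearest to Dchs1 and to Fat4. A gene entered the test if 3 or more samples had the equivalent of 10 reads at median depth and the samples together had 15 or more reads. limma 3.58.1 (R 4.3.3, mean-variance trend, group as the only term) was run on log2(RPKM + 0.1) with Benjamini-Hochberg adjustment over 13952 genes. This scale understates the change of low genes, and p-values measure the spread between samples of 2 pooled mice. Level order used scipy 1.17.1, and figures matplotlib 3.10.9. Intervals cover counting error only. Alternatives were a pseudocount of 1, median-of-ratios scaling, other filters, voom, the replicate block, length centring and each sample left out.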

Additional observations from a re-analysis of the deposited data

How the results depend on the processing

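The count of mRNAs past both cutoffs ranged from 0 to 103 when each sample was left out (103 without NC3) and was 0 in every other alternative run. The median log2 difference of the 10 genes ranged from -0.32 to -0.10 when each sample was left out (-0.10 without NC1), and was -0.14 with a pseudocount of 1, -0.16 with median-of-ratios scaling, -0.23 with voom and -0.066 with length centring. Of the 10 genes, 5 or 6 were lower in HE throughout. Fat4 changed sign under median-of-ratios scaling, length centring and without NC1 or HE1, and Prickle1 without HE1. The groups did not overlap in 6 to 8 of the 10 when each sample was left out, a count that leaving out a sample cannot lower. The share of all genes tested was not counted for these runs, so nothing is read from this range. Among the 118 genes of the 5 lists, the count lower at an unadjusted p under 0.05 ranged from 8 (without NC1) to 24 (without HE1), and the count higher from 4 (without NC1; 6 without NC2) to 12. With length centring 12 were lower and 17 higher. The cause of these shifts was not tested. The small difference of Vgll4 (-0.00) turned to 0.0597 with median-of-ratios scaling, 0.0615 without NC2, 0.15 without HE3 and 0.0894 with length centring. The shared sample numbers were not taken as pairs, since the deviations of same-numbered samples correlated at 0.156, 0.0869 and 0.0603 and not all above 0.1. Those of differently numbered samples were all negative, from -0.0764 to -0.00114, so every sample correlated best with its own number. Whether a shared number stands for a shared preparation was not tested. With the replicate block the calls stayed at 0, the median of the 10 genes at -0.22, and 22 list genes were lower and 10 higher. Depth limits Prickle1 and Celsr3 more than the other genes of the set.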
